A study of Mus musculus with 22 samples.

Results

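Tumours that Panc02, a pancreatic cancer line of the mouse, formed in host mice were compared by their level of Cxcl9, a chemokine gene switched on by interferon gamma. The 8 allograft libraries, out of 22 libraries in the series, were ranked by Cxcl9 in counts per 1000000 of the library's total (CPM). The groups were selected on that measured value, the 4 highest against the 4 lowest. The Cxcl9-high libraries were allografts 1 and 4 from female hosts and 7 and 6 from male hosts. The Cxcl9-low libraries were allografts 5 and 8 from male hosts and 2 and 3 from female hosts, so that each group held 2 hosts of each sex. The series asks whether sex shapes the action of natural killer (NK) cells on pancreatic cancer, and its other 14 libraries hold NK cells, NK and Panc02 co-cultures and cultured Panc02. The design text calls the model syngeneic. Host strain, age, treatment, time of growth and site of the graft are not given in the sources used here. No label says that each library came from its own animal. The p-values are therefore about the spread among the libraries, which may be technical. Because the groups were made from a measured value, a test between them says only that a gene goes with Cxcl9 over these 8 libraries, and Cxcl9 itself was left out of every test.

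Interferon gamma is made mainly by T cells and NK cells. It binds a receptor that activates the kinases JAK1 and JAK2, and this leads to further transcription factors such as IRF1 and CIITA. Among the genes that follow are the chemokines Cxcl9, Cxcl10 and Cxcl11, whose receptor CXCR3 sits on activated T cells and NK cells. They also include the guanylate-binding proteins and immunity-related GTPases, which attack vacuoles that hold microbes, and the genes that load peptides on MHC molecules. In tumours, Cxcl9 is made mostly by macrophages and dendritic cells and is widely read as a sign of T cell inflammation. Many of these genes carry a gamma-activated site (GAS) or an interferon-stimulated response element (ISRE), bound by IRF factors, near their start.

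The promoters of 8 such genes are shown because they carry those letters next to genes that the comparison turns on. Each run covers the 250 bases before the RefSeq start of the gene, 5′ to 3′ on the gene's own strand, on build GRCm38.p6, which is older than the GRCm39 build of the deposited counts. Capitals mark a match to the GAS letters TTCNNNGAA or to the ISRE core GAAANNGAA, searched on both strands, so that an ISRE core on the other strand reads TTCNNTTTC.

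Cxcl9: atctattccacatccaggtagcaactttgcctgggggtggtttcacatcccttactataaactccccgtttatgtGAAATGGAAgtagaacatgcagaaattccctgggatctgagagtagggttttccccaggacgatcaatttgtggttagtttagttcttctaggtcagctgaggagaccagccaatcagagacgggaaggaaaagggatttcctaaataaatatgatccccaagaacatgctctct
Cxcl10: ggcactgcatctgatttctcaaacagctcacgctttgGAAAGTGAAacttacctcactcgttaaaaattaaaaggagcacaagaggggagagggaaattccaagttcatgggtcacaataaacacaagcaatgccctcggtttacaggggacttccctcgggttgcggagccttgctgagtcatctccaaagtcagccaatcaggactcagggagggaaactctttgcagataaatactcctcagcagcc
Irf1: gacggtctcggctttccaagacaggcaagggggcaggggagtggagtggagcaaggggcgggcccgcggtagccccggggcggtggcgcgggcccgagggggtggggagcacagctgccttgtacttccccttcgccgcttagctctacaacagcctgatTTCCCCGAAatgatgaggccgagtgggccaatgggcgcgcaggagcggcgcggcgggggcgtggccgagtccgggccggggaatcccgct
Gbp2: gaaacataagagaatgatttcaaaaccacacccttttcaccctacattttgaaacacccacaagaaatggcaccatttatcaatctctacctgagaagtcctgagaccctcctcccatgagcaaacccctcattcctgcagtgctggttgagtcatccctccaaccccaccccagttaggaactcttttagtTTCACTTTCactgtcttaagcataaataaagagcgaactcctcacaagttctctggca
Gbp5: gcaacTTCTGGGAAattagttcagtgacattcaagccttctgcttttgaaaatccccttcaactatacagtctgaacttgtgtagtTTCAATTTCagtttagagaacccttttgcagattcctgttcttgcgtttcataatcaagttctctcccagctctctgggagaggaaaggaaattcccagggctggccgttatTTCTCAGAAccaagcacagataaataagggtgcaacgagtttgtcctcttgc
Igtp: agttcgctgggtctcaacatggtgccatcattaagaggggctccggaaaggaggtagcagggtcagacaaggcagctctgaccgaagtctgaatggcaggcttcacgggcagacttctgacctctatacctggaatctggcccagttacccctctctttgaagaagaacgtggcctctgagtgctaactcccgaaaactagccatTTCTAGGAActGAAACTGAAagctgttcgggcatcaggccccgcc
Irgm2: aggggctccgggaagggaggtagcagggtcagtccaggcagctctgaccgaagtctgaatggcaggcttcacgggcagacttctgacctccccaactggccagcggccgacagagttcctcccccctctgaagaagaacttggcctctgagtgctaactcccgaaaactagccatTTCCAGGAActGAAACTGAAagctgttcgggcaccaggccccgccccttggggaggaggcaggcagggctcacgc
Cd274: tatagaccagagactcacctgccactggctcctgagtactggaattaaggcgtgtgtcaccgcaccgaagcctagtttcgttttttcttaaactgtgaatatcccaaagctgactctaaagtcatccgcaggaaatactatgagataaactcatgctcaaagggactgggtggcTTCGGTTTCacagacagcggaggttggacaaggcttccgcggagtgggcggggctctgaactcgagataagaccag

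Of these, Cxcl9 (chr5:92328080-92328329, minus strand), Cxcl10 (chr5:92348890-92349139, minus strand), Gbp2 (chr3:142620413-142620662, plus strand) and Cd274 (chr19:29367188-29367437, plus strand) held 1 ISRE core and no GAS match in this window. Irf1 (chr11:53769764-53770013, plus strand) held 1 GAS match and no ISRE core. Gbp5 (chr3:142496684-142496933, plus strand) held 2 GAS matches and 1 ISRE core. Igtp (chr11:58199306-58199555, plus strand) and Irgm2 (chr11:58214727-58214976, plus strand) each held a GAS match with an ISRE core just after it. No GAS match overlapped an ISRE core. Over the RefSeq windows from 250 bases before to 50 bases after the start, 6.88% of 15370 promoters of tested genes held the GAS letters and 7.64% the ISRE core. For genes in which all 4 Cxcl9-high libraries lay above all 4 Cxcl9-low libraries, these shares were 10.3% and 15.5% of 399 promoters. For genes with all 4 below, they were 7.49% and 7.75% of 374. Of 7 promoters of immunity-related GTPases 57.1% held the GAS letters and 71.4% the ISRE core, and of 6 of guanylate-binding proteins 33.3% and 83.3%, with RefSeq windows found for 7 of 10 and 5 of 11 genes. Of 23 promoters of type I interferon stimulated genes 21.7% and 65.2% held them. For 15 promoters of class I presentation genes the shares were 6.67% and 20%, so the GAS letters were no more common there than over all tested genes.

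The 8 libraries held 26140269 to 42078638 counts each, and 19983 to 21333 genes had at least 10 counts. Some libraries stood apart in ways that do not follow the Cxcl9 order. The summed level of 18 skeletal muscle genes was 2003, 46844, 13286 and 925.8 CPM in Cxcl9-high allografts 1, 4, 7 and 6 and 5409, 3709, 28164 and 3728 CPM in Cxcl9-low allografts 5, 8, 2 and 3. Allograft 3, the lowest in Cxcl9, stood apart in some genes of B cells and lymphoid tissue, such as the class II modulator H2-Ob at 40.4 CPM against 3.61 to 5.04 in the others. The sum of 14 B and plasma cell genes was highest in allograft 5, at 4727 CPM, against 1631 CPM in allograft 3. Allograft 7, from a male host, stood out in 6 red cell genes, summed at 891.7 CPM against 56.0 to 249.2, and in 11 skin genes, at 315.8 against 29.5 to 70.03. It also held Xist, the RNA of the silenced X chromosome of female cells, at 8.94 CPM, where the other male hosts had 0.523 to 1.10 and the female hosts 41.5 to 162. Its level of the Y-linked gene Ddx3y was 9.81 CPM, beside 10.4 to 14.7 in the other male hosts and 0 to 0.55 in the female hosts. The part of these tissues in the results was not tested, and where leaving out 1 library moved the median of a list by over 1.5 times, the value without it or the range is given.

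Cxcl9 stood at 771, 362, 317 and 295 CPM in the Cxcl9-high allografts 1, 4, 7 and 6 and at 222, 210, 134 and 48.1 CPM in the Cxcl9-low allografts 5, 8, 2 and 3. The group means were 436 ± 225 and 154 ± 80.5 CPM (SD, n = 4 each), a ratio of 2.84 that the ranking itself made. Allografts 6 and 5, on either side of the dividing line, differed only 1.33 times, while the extremes, both from female hosts, differed 16.0 times. The 4 male hosts held the middle of the order, at 210 to 317 CPM. Scaling the libraries by TMM left the order unchanged. Cxcl9 had 0 counts in both cultured Panc02 libraries and stood at 0 to 3.24 CPM in the 12 libraries with NK cells.

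**Figure D1:**
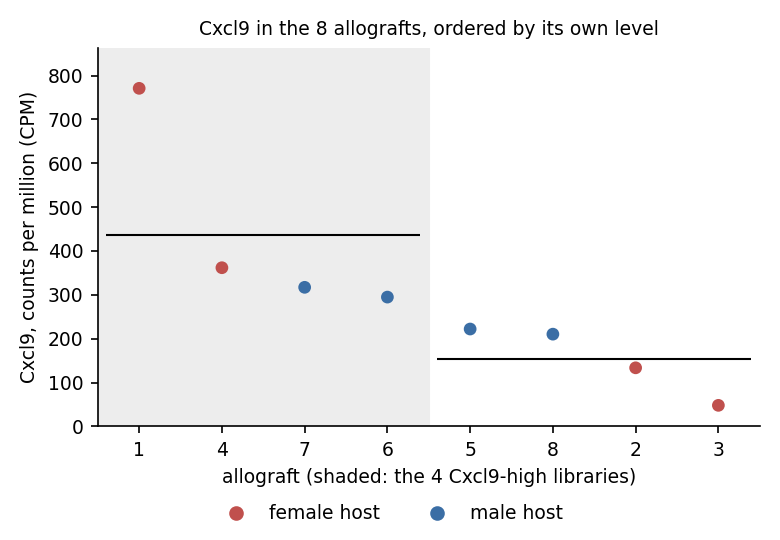
Cxcl9 in CPM (vertical axis, from 0) in the 8 allografts, ordered by that level; red points are female hosts, blue points male hosts, black lines group means, and the shaded area holds the 4 Cxcl9-high libraries. The values run from 771 CPM in allograft 1 to 48.1 CPM in allograft 3, and the 4 male hosts lie in the middle, between 210 and 317 CPM.

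By list medians, genes of the interferon response, the killing machinery and antigen presentation were higher in the Cxcl9-high libraries, and genes of cell division were lower. Genes of contractile and matrix-building cells were lower in part. No single gene passed the edgeR test between the groups. edgeR called 0 of 20559 genes at an adjusted p of 0.05 (0%), with a lowest adjusted p of 0.347. At an unadjusted p under 0.05 it had 858 genes higher (4.17%) and 716 lower (3.48%), and DESeq2, a second count test, called 124 of 22374 genes higher (0.554%) and 72 lower (0.322%). In 454 genes (2.21%) all 4 Cxcl9-high libraries lay above all 4 Cxcl9-low libraries, and in 546 (2.66%) all 4 lay below. The median log2 fold change over all genes tested was 0.02, and 52.7% of them were positive. These shares over all genes are the background to the counts given for each list below. With log2 Cxcl9 as a continuous term over the 8 libraries, edgeR called 19 genes rising with Cxcl9 (0.0924%) and 6 falling (0.0292%), and "rose" and "fell" are used below for these genes only. Those calls depend on single libraries: 0 genes were called without allograft 3, 5 or 8 and without allografts 1 and 3 together, whereas 290 were called without allograft 1.

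Of the ligands of CXCR3, Cxcl10 rose with Cxcl9 and Cxcl11 did not follow it. Cxcl10 (chromosome 5, 92494497 to 92496748, GRCm39 as for all gene positions below) stood at 87.4, 65.5, 43.3 and 40.5 CPM in the Cxcl9-high allografts, in the order 1, 4, 7 and 6, and at 33.9, 33.7, 18.3 and 11.4 CPM in the Cxcl9-low allografts, in the order 5, 8, 2 and 3. Its levels followed the Cxcl9 order from library to library, and the groups did not overlap. Between the groups its log2 fold change was 1.31 ± 0.39 (SE, edgeR adjusted p = 0.493, DESeq2 0.0481), and per doubling of Cxcl9 it rose by 0.79 ± 0.08 on the log2 scale (edgeR adjusted p = 0.0168). Cxcl11 stood at 3.56, 1.47, 0.649 and 0.665 CPM against 0.59, 0.869, 3.85 and 0.689, high in the first and the next to last library of the order. Cxcr3 itself (chromosome X, 100775141 to 100777875) had group means of 7.22 ± 3.42 and 6.01 ± 2.55 CPM, with overlapping groups.

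Some steps of interferon gamma signalling were higher without overlap and others were level. Ifng (chromosome 10, 118276951 to 118281797) was low throughout, at 2.64, 2.25, 0.817 and 1.07 CPM against 1.24, 0.614, 0.438 and 0.0765, so that the groups overlapped through allografts 7, 6 and 5. Irf1 (chromosome 11, 53660841 to 53669200), an early factor of the response, stood at 279, 262, 232 and 230 CPM against 177, 170, 117 and 116. Every Cxcl9-high library lay above every Cxcl9-low library, and female hosts had the highest and the lowest levels. The log2 fold change of Irf1 was 0.82 ± 0.17 (edgeR adjusted p = 0.347, DESeq2 0.0166).

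Batf2, an interferon-induced transcription factor of macrophages and dendritic cells, had the widest difference of the chain, at 37.4, 35.2, 28.8 and 20.7 CPM against 15, 11.3, 7.77 and 3.98. It rose by 0.95 ± 0.13 per doubling of Cxcl9 (edgeR adjusted p = 0.0404). Socs3, a feedback inhibitor of cytokine signalling, had group means of 150 ± 16.4 and 111 ± 11.3 CPM without overlap. The receptor gene Ifngr1 (174 ± 17.7 and 124 ± 34.6 CPM) and the kinase gene Jak2 (116 ± 41.3 and 69.8 ± 28.8 CPM) overlapped. Their partners Ifngr2 (135 ± 25.3 and 129.9 ± 15.9 CPM) and Jak1 (162 ± 11.7 and 163 ± 20.1 CPM) were level, and the phosphatase gene Ptpn2 stood at 23.1 ± 3.56 and 25.5 ± 2.75 CPM. Irf8, a factor of macrophages and dendritic cells, stood at 74.9 ± 14.5 and 66.9 ± 14.5 CPM. In all, 4 of 13 genes of this list had no overlap, all of them higher, where 2.21% of all genes did. The list's median log2 fold change was 0.48, between 0.38 and 0.52 when 1 library was left out.

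The GTPases that interferon gamma induces were the most uniform group. Of 11 guanylate-binding protein genes, all of which passed the low-count filter, 10 had every Cxcl9-high library above every Cxcl9-low library, where 2.21% of all genes did. Their median log2 fold change was 1.60, and DESeq2 called 9 of the 11, where it called 0.554% of all genes higher. Gbp2 (chromosome 3, 142326363 to 142343769) stood at 561, 723, 526 and 428 CPM against 252, 232, 133 and 60.3, and Gbp5 (chromosome 3, 142199739 to 142228105), which helps to assemble inflammasomes, at 76.9, 82, 58.4 and 55.3 CPM against 28, 25.4, 24.7 and 9.26. The highest Cxcl9-low library of either gene, allograft 5, stayed well below allograft 6, its neighbour in the order. The log2 fold changes were 1.76 ± 0.41 for Gbp2 and 1.67 ± 0.32 for Gbp5 (edgeR adjusted p = 0.361 and 0.347, DESeq2 0.00202 and 0.000297).

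Gbp3 rose with Cxcl9 by 1.06 ± 0.15 per doubling (edgeR adjusted p = 0.0459), with 134, 159, 117 and 109 CPM against 60.4, 62.1, 31.5 and 12.1. Gbp8 did not overlap either, at 20.4 ± 1.93 and 9.68 ± 2.90 CPM. The member that overlapped was Gbp2b, at 3.45, 7.40, 3.29 and 4.94 CPM against 3.42, 1.71, 1.63 and 0.497. These genes are near copies that lie side by side, and reads that map to several places were counted, so the split between them is uncertain.

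Of 11 immunity-related GTPase genes 10 were tested, Gm12250 having 0 counts in all 8 libraries. Of the 10, 8 had no overlap, all higher, where 2.21% of all genes did. Their median log2 fold change over the 10 was 1.49, and DESeq2 called 7, where it called 0.554% of all genes higher. Gm12250 (chromosome 11, 58078565 to 58079838) lies inside a gene without a symbol (58074623 to 58080267). That gene, singled out after its values were seen, ran from 18.5 CPM in allograft 1 to 2.18 CPM in allograft 3. It rose by 0.83 ± 0.09 per doubling of Cxcl9 (edgeR adjusted p = 0.0168). Whether reads of Gm12250 were counted there was not tested, so the 0 counts of Gm12250 do not show that it is silent. Iigp1, which disrupts the vacuoles of intracellular parasites, stood at 258, 222, 245 and 295 CPM against 114, 127, 51.9 and 19.5. Irgm1 (chromosome 11, 48752795 to 48762510), a regulator of the family, stood at 242, 215, 208 and 230 CPM against 130, 138, 88.7 and 61.6. Within the Cxcl9-high group Iigp1 spanned 222 to 295 and Irgm1 208 to 242 CPM, while Cxcl9 itself spanned 295 to 771 CPM, and both genes varied more in the Cxcl9-low group. Ifi47 rose by 0.62 ± 0.07 per doubling (edgeR adjusted p = 0.0168), and Tgtp1 stood at 142 ± 10.9 against 44.7 ± 24.6 CPM. Irgq, a divergent member of the family, was alike in both groups, at 36.7 ± 5.78 and 36.7 ± 1.91 CPM.

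**Figure D2:**
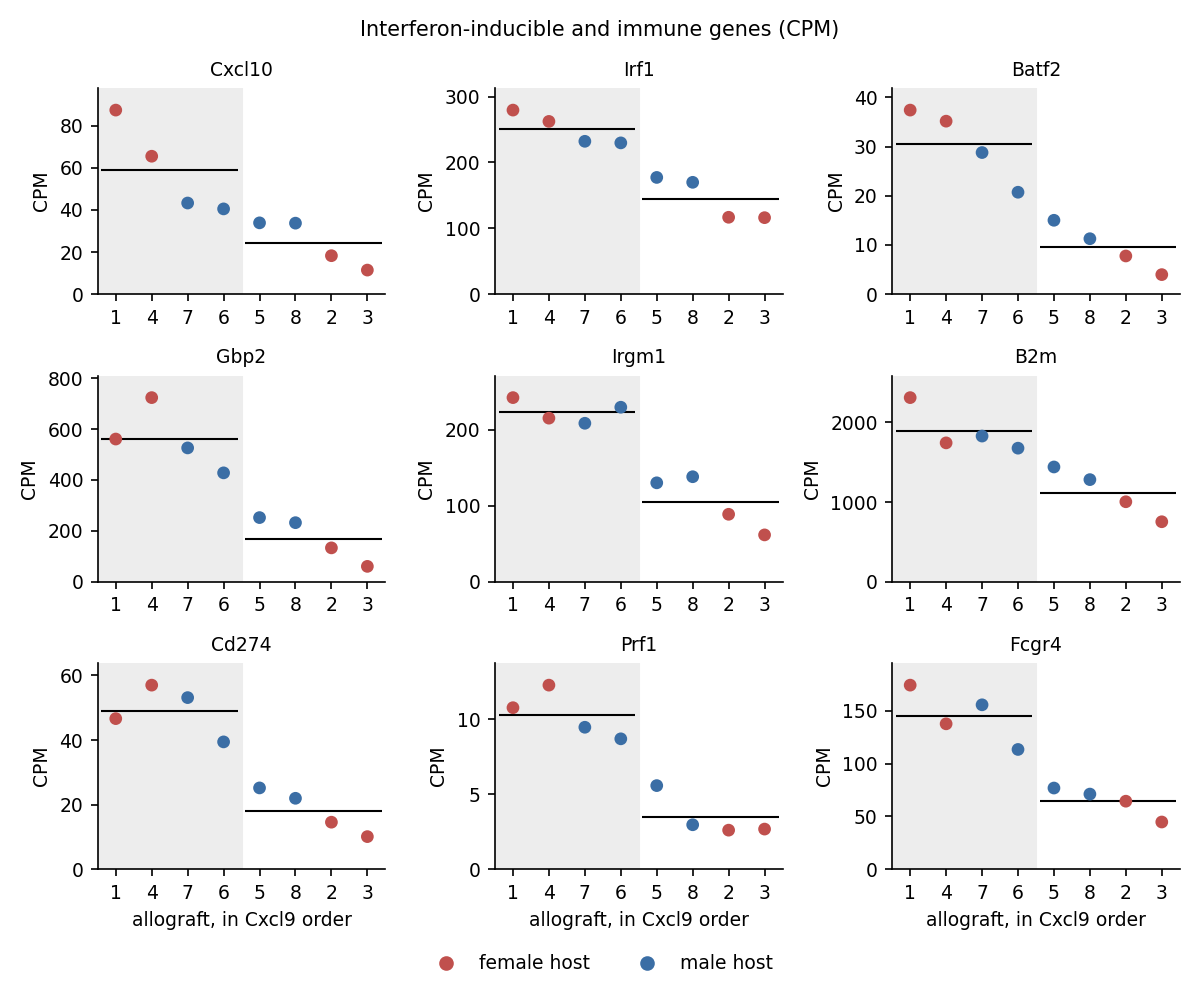
Levels of 9 interferon-inducible and immune genes in CPM (vertical axes, each from 0) in the 8 allografts in Cxcl9 order; red points are female hosts, blue points male hosts, black lines group means, and the shaded area holds the Cxcl9-high libraries. In each of the 9 panels every Cxcl9-high library lies above every Cxcl9-low library, and the step between allografts 6 and 5 is wide for Gbp2 (428 and 252 CPM) and narrow for Cxcl10 (40.5 and 33.9 CPM).

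Genes known best for their response to type I interferons were split. Of 29 tested, 10 had no overlap, all higher, where 2.21% of all genes did, and the median log2 fold change was 0.61. Ifit3, an antiviral protein that binds foreign RNA complexes, stood at 105, 112, 89.3 and 47.6 CPM against 30, 33, 17.5 and 9.10, a log2 fold change of 2.01 ± 0.43 (edgeR adjusted p = 0.361, DESeq2 0.000297). Its neighbours Ifit1 (30.6 ± 6.10 and 10.7 ± 5.2 CPM) and Ifit3b (27.2 ± 10.2 and 7.57 ± 2.95 CPM) went the same way, and Zbp1, a sensor of left-handed nucleic acids, rose with Cxcl9 by 0.68 ± 0.09 per doubling (edgeR adjusted p = 0.0404). Isg15, the ubiquitin-like modifier that is a usual marker of type I interferon, overlapped, at 43.9, 36.9, 33.3 and 17.8 CPM against 19.7, 22.5, 28.8 and 20. Of 14 tested genes of the type I and III interferon system itself 3 had no overlap, all higher, where 2.21% of all genes did. Among them were the signalling factor Stat2 (66.0 ± 13.8 and 44.3 ± 4.96 CPM) and the RNA sensor Ifih1 (11.2 ± 0.635 and 7.49 ± 1.83 CPM). That list's median was 0.19, and 0.10 without allograft 3.

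Antigen presentation on class I molecules was higher by a modest amount. Of 16 genes 13 had an unadjusted p under 0.05, all higher, where 4.17% of all genes did. Of the 16, 5 lay above without overlap, where 2.21% of all genes did. B2m (chromosome 2, 121978167 to 121983564), the light chain of all class I molecules, stood at 2312, 1744, 1829 and 1677 CPM against 1441, 1282, 1004 and 753. The groups lay apart, and B2m rose with Cxcl9 by 0.44 ± 0.06 per doubling (edgeR adjusted p = 0.0404). Psmb8, an immunoproteasome subunit, also rose, by 0.47 ± 0.06 per doubling (edgeR adjusted p = 0.0404), although its groups overlapped at 294, 234, 184 and 166 CPM against 191, 153, 112 and 85. The heavy chain gene H2-K1 stood at 1538 ± 283 and 876 ± 300 CPM, Nlrc5, the activator of class I genes, at 83.1 ± 5.67 and 47.4 ± 15.5 CPM, and Tapbpl, a peptide editor, at 52.1 ± 10.6 and 31.1 ± 6.41 CPM. Near copies among the class I heavy chains share reads.

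Class II genes had a median log2 fold change of 0.69 over 12 genes. Of these, 8 were higher at an unadjusted p under 0.05, but only 1 lay above without overlap. Over all genes the shares were 4.17% and 2.21%. The invariant chain gene Cd74 stood at 4919, 4688, 3703 and 2769 CPM against 3207, 2197, 1966 and 1247, and H2-Aa at 1850 ± 412 and 1050 ± 399 CPM. In both genes allograft 6 lay below allograft 5, which alone made the groups overlap. The same held for H2-DMb1, of the peptide loader H2-DM, which rose by 0.58 ± 0.08 per doubling (edgeR adjusted p = 0.0404). Ciita, the master regulator of the set, stood at 69.0 ± 10.7 and 43.4 ± 14.5 CPM. H2-Ob, a class II modulator of B cells, went the other way because of allograft 3, at 40.4 CPM against 3.61 to 5.04 in the other libraries. Without allograft 3 its log2 fold change was 0.08 instead of -1.59.

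Genes of NK cells and of the killing machinery were higher as lists, but hardly so within male hosts. The median log2 fold change of the NK list was 2.01 in female and 0.00 in male hosts, and that of cytotoxic effectors 1.83 and 0.15. The summed level of the NK list overlapped, at 25.7 to 67.9 CPM against 19.6 to 34.3. The deposited counts are of whole tumours, in which more cells of a type and more RNA per cell cannot be told apart. Klrc1 (chromosome 6, 129642978 to 129655936), which encodes the receptor NKG2A of NK cells and some T cells, stood at 7.5, 3.99, 2.91 and 3.52 CPM against 1.68, 1.79, 0.511 and 0.497. Prf1 (chromosome 10, 61133612 to 61140459), the pore-forming protein perforin, stood at 10.8, 12.3, 9.47 and 8.70 CPM against 5.58, 2.97, 2.61 and 2.68. Neither gene overlapped between the groups, and allograft 5 was the highest of its group in Prf1. Their log2 fold changes were 2.02 ± 0.52 and 1.61 ± 0.29 (edgeR adjusted p = 0.402 and 0.347, DESeq2 0.00837 and 0.000123).

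Over 10 NK cell genes the median log2 fold change was 1.24, and 2 lay above without overlap, where 2.21% of all genes did. Klrk1, the activating receptor NKG2D, stood at 12.0 ± 6.11 and 6.01 ± 3.06 CPM and Ncr1, which encodes NKp46, at 1.91, 2.25, 0.601 and 0.57 CPM against 0.826, 0.307, 0.901 and 0.153. Ncr1 was thus high in the female hosts 1 and 4 only. Klra4, a receptor of the Ly49 family, went against the others, at 3.19 ± 2.37 and 9.14 ± 5.24 CPM. It stood at 11.1 CPM in cultured Panc02, which holds no NK cells. Over 12 cytotoxic effector genes the median was 0.93, with granzyme B, Gzmb, at 6.43 ± 1.61 and 3.48 ± 0.487 CPM without overlap and Nkg7, a granule membrane protein, at 19.9 ± 7.62 and 9.28 ± 3.62 CPM.

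T cell genes as a whole did not separate the groups. Of 20 genes 1 lay above with no strict overlap, where 2.21% of all genes did. That gene was Cd8a, the coreceptor of killer T cells, at 33.5, 29.2, 19 and 16.3 CPM against 16.3, 11.8, 6.04 and 13.9. Allografts 6 and 5 were almost level in it. Cd3e, part of the T cell receptor, stood at 10.7 ± 3.6 and 8.17 ± 2.31 CPM, Cd4, the coreceptor of helper T cells, at 20.2 ± 2.74 and 23.3 ± 5.76 CPM, and Foxp3, the factor of regulatory T cells, at 7.59 ± 2.18 and 7.32 ± 3.76 CPM. The median log2 fold change over the T cell list was 0.22, and ran from 0.02 without allograft 1 to 0.47 without allograft 5, with allografts 2, 3, 6 and 8 also moving it by over 1.5 times. For 7 genes of regulatory T cells it was 0.16, with 0 genes free of overlap. It ran from 0.00 without allograft 1 to 0.46 without allograft 5, with allografts 3, 6, 7 and 8 also moving it by over 1.5 times.

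**Figure D3:**
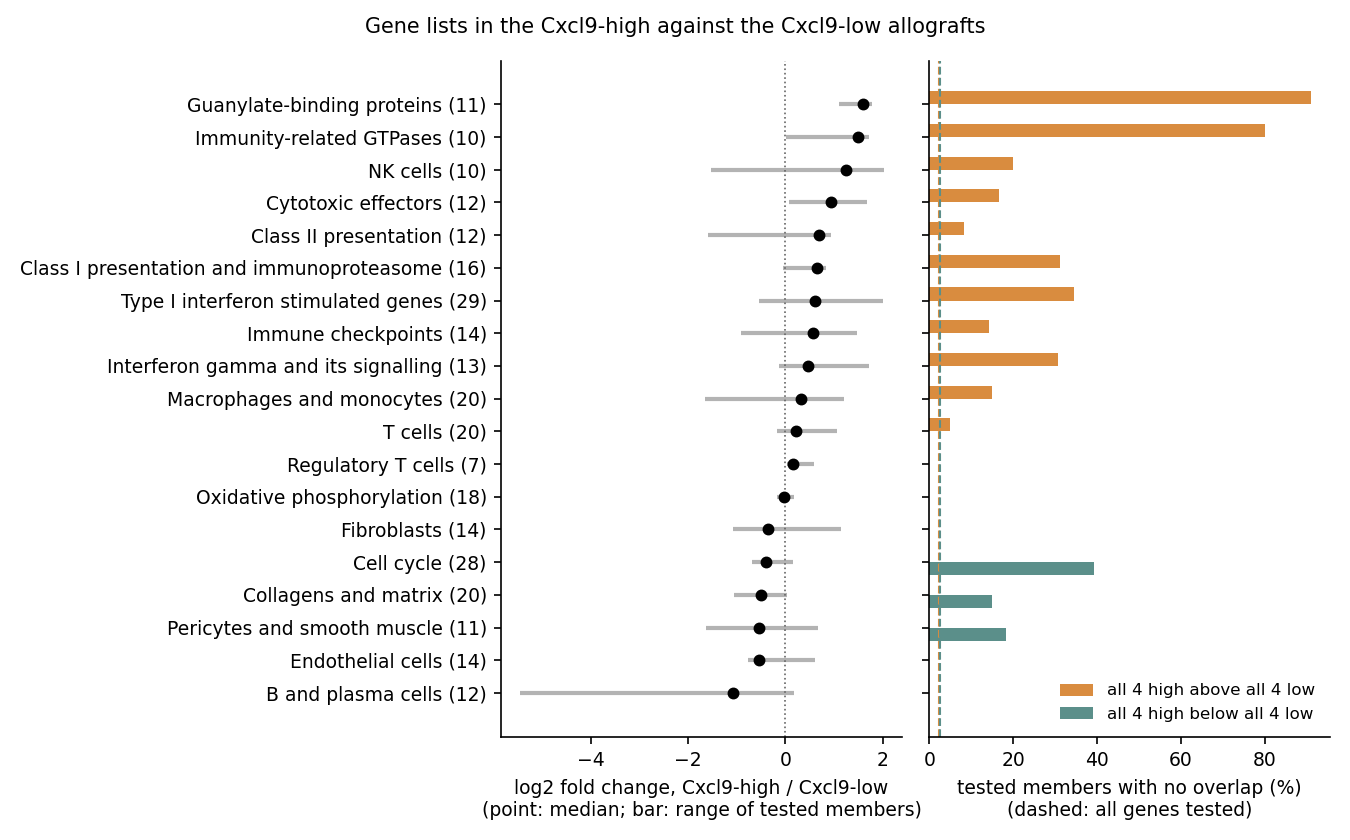
Gene lists, with the number of tested members in brackets, in the Cxcl9-high against the Cxcl9-low allografts: left, the median log2 fold change (points) and the range of the tested members (grey bars); right, the percent of tested members with all 4 Cxcl9-high libraries above (orange) or below (green) all 4 Cxcl9-low libraries, with dashed lines for all genes tested (2.21% and 2.66%). Guanylate-binding proteins (10 of 11) and immunity-related GTPases (8 of 10) have the largest share above, and cell cycle genes (11 of 28) the largest share below.

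Brakes on the immune response and enzymes that limit it were partly higher. Cd274 (chromosome 19, 29344855 to 29365495), which encodes the checkpoint ligand PD-L1 and is itself an interferon gamma target, stood at 46.6, 57, 53.1 and 39.4 CPM against 25.2, 22, 14.6 and 10.1. Its lowest Cxcl9-high library lay above its highest Cxcl9-low library by more than either group's SD, with means of 49.0 ± 7.71 and 18.0 ± 6.87 CPM. The log2 fold change was 1.48 ± 0.27 (edgeR adjusted p = 0.347, DESeq2 0.000405). Lag3 stood at 20.1 ± 4.54 and 10.5 ± 3.35 CPM and Havcr2, which encodes TIM-3, at 24.9 ± 2.68 and 17.2 ± 3.76 CPM without overlap. The 14 checkpoint genes had a median of 0.56, or 0.37 without allograft 3 and 0.85 without allograft 5.

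Of 13 tested genes of suppressor enzymes and tryptophan breakdown 5 had no overlap, all higher, where 2.21% of all genes did. The list as a whole was split, with 7 genes positive and 6 negative. Its median log2 fold change was 0.30, or 0.11 without allograft 1. Nos2, the nitric oxide synthase of activated macrophages, stood at 11.9, 17.5, 23.2 and 7.15 CPM against 4.93, 6.52, 3.90 and 2.95. Acod1, which makes itaconate in macrophages, stood at 23.7, 14.2, 12.1 and 8.08 CPM against 6.46, 4.78, 4.43 and 2.68 and rose by 0.84 ± 0.12 per doubling of Cxcl9 (edgeR adjusted p = 0.0439). Acod1 kept the Cxcl9 order in full, whereas Nos2 was highest in allograft 7. Arg1, the arginase of another macrophage state, overlapped, with 117 CPM in allograft 1 and 25.5 to 74.8 CPM in the rest. The tryptophan enzyme gene Ido1 also overlapped (1.78 ± 0.595 and 0.750 ± 0.838 CPM), while its relative Ido2 (3.47 ± 1.30 and 1.17 ± 0.586 CPM) and Wars, the tryptophan tRNA ligase (153 ± 21.8 and 105 ± 9.06 CPM), did not. Il18bp, a secreted inhibitor of interleukin-18 induced by interferon gamma, stood at 56.5, 59.8, 46.1 and 44.4 CPM against 28, 23.8, 22 and 14.1, with a log2 fold change of 1.26 ± 0.21 (edgeR adjusted p = 0.347, DESeq2 0.000297).

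Of 20 macrophage and monocyte genes 16 were positive, 4 were higher at an unadjusted p under 0.05 and 3 had no overlap, all higher, where 2.21% of all genes did. Adgre1, which encodes F4/80, stood at 180, 154, 135 and 153 CPM against 138, 112.7, 225 and 114, and Csf1r, the growth factor receptor of macrophages, at 307 ± 41.7 and 343 ± 109 CPM. Both genes were highest in the Cxcl9-low allograft 2. C1qa, a complement gene of macrophages, stood at 864 ± 219 and 733 ± 143 CPM and Ly6c2, of inflammatory monocytes, at 33.3 ± 14.3 and 25.5 ± 19.2 CPM. Fcgr4 (chromosome 1, 170846489 to 170857330), an activating receptor for IgG, stood at 174, 138, 156 and 114 CPM against 76.9, 71.2, 64.5 and 44.8. It did not overlap, and its log2 fold change of 1.20 ± 0.19 went with the smallest unadjusted p of the macrophage list (edgeR adjusted p = 0.347, DESeq2 0.000185). Apoe, a lipid carrier, was also higher without overlap, at 4443 ± 1108 and 2795 ± 499.6 CPM. The list's median was 0.33, or 0.13 without allograft 1.

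Of 13 dendritic cell genes 0 lay above without overlap and 1 below, where 2.21% and 2.66% of all genes did. Their median was -0.03, between -0.05 without allograft 4 and 0.36 without allograft 5. It was also above 0 without allograft 1, 2, 3, 6 or 7. The genes of cross-presenting dendritic cells were low, with Xcr1 at 6.81, 3.69, 2.84 and 3.68 CPM against 2.60, 2.86, 1.44 and 0.918 and Clec9a at 1.87 ± 1.30 and 1.14 ± 0.600 CPM. Fscn1, the actin bundler of mature dendritic cells and of invasive tumour cells, was lower, at 78, 92, 100 and 95 CPM against 143, 117, 138 and 157 (log2 fold change -0.58 ± 0.12, edgeR adjusted p = 0.347, DESeq2 0.0347). It stood at 4.19 CPM in cultured Panc02. Of 10 tested genes of mast cells and eosinophils 8 were positive, 5 were higher at an unadjusted p under 0.05 and 2 had no overlap, with a median of 0.62. Over all genes 52.7% were positive, 4.17% were higher at that p and 2.21% lay above without overlap. The summed level of the list overlapped, at 191 to 537 CPM against 185 to 343. The genes without overlap were Ms4a2, part of the IgE receptor, at 2.49, 1.72, 3.17 and 2.66 CPM against 0.826, 1.36, 0.731 and 0.880, and Kit, the stem cell factor receptor, at 25.9 ± 6.33 and 14.7 ± 4.67 CPM. S100a8, of neutrophils, stood at 77.0 ± 36.8 and 60.2 ± 34.0 CPM.

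Endothelial and B cell genes had mostly negative fold changes, while an adhesion molecule was higher. Vcam1, which holds leukocytes on inflamed endothelium, stood at 211, 162, 127 and 209 CPM against 102, 88.8, 76.9 and 54.5, a log2 fold change of 1.16 ± 0.22 (edgeR adjusted p = 0.347, DESeq2 0.00202). Its list, leukocyte adhesion and high endothelial genes, did not follow it, with 5 of 12 tested genes positive and 7 negative. Of the 12, only Vcam1 lay above without overlap, where 2.21% of all genes did. The list's median was -0.22, between -0.40 and 0.24 with 1 library left out. Pecam1, a general endothelial gene, stood at 75.7 ± 21.1 and 95.2 ± 33.1 CPM, and the median over 14 endothelial genes was -0.54, between -0.73 and -0.37 with 1 library left out. Of these 14 genes 11 were negative, 3 were lower at an unadjusted p under 0.05 and 0 were free of overlap. Over all genes 3.48% were lower at that p. B and plasma cell genes had a median of -1.08 over 12 tested genes, and -0.35 without allograft 3. Of the 12, 11 were negative, 5 were lower at an unadjusted p under 0.05, beside the same 3.48% of all genes, and 0 were free of overlap. Glycam1, of the high endothelial venules of lymph nodes, stood at 189 CPM in allograft 3 and at 0.153 to 1.67 CPM elsewhere. Without allograft 3 its log2 fold change went from -5.48 to 1.04.

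**Figure D4:**
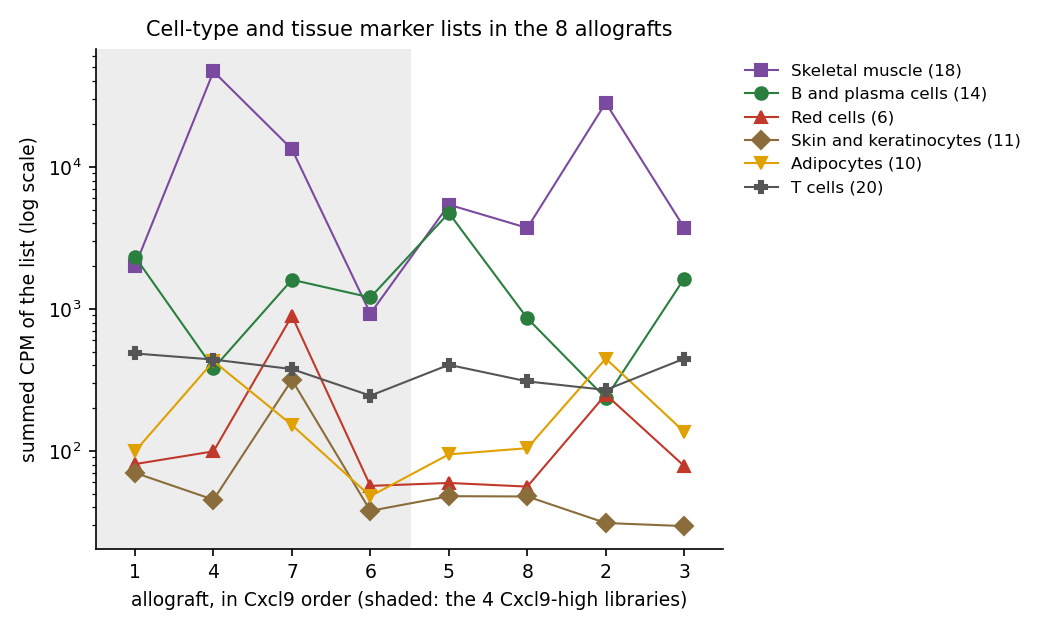
Summed CPM (vertical axis, log scale) of 6 marker lists, with the number of genes in brackets, in the 8 allografts in Cxcl9 order; the shaded area holds the Cxcl9-high libraries. Skeletal muscle runs from 925.8 to 46844 CPM with peaks in allografts 4 and 2, red cell and skin genes peak in allograft 7, and T cell genes stay between 244.6 and 484.7 CPM.

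Cell division genes were lower in the Cxcl9-high libraries. Of 28 cell cycle genes 11 had all 4 Cxcl9-high libraries below all 4 Cxcl9-low libraries, where 2.66% of all genes did, and 18 were lower at an unadjusted p under 0.05, where 3.48% of all genes were. The median log2 fold change was -0.40, and stayed between -0.45 and -0.32 when 1 library was left out. With log2 Cxcl9 as a continuous term the list's median change was only -0.09 per doubling of Cxcl9. That of the guanylate-binding proteins was 0.93. In that fit edgeR called 0 of the cell cycle genes falling, beside 0.0292% of all genes. Mcm5, of the helicase that opens DNA for replication, stood at 76.8, 56.7, 67.5 and 70.1 CPM against 109, 106, 99.5 and 99.1. Its groups lay well apart, and within the Cxcl9-high group it did not follow the Cxcl9 order. Its log2 fold change was -0.59 ± 0.11 (edgeR adjusted p = 0.347, DESeq2 0.0175). Plk1, a kinase of mitosis, stood at 44.7, 32.8, 45.4 and 51.6 CPM against 73.2, 70.4, 62.7 and 56.8, Cdc20, which triggers anaphase, at 46.3 ± 6.06 and 69.4 ± 6.48 CPM and Ccne1, which encodes cyclin E1, at 10.8 ± 1.66 and 17.5 ± 1.20 CPM. The proliferation marker Mki67 overlapped, at 99.4, 51.5, 125 and 164 CPM against 172, 196, 134 and 105. All 28 cell cycle genes stood at 1 CPM or more in cultured Panc02.

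Genes of contractile and matrix-building cells were lower in part. Tnc (chromosome 4, 63878022 to 63965252), the matrix protein tenascin C, stood at 619, 771, 1202 and 930 CPM against 2275, 1808, 1406 and 1863. Tagln, of smooth muscle and activated fibroblasts, stood at 167, 96.5, 186 and 121 CPM against 284, 264, 296 and 567, and Timp1, an inhibitor of matrix proteases, at 196, 154, 163 and 131 CPM against 316, 252, 236 and 338. None of these 3 genes overlapped, and allograft 3 was far above the rest in Tagln alone. Their log2 fold changes were -1.04 ± 0.22, -1.29 ± 0.29 and -0.80 ± 0.17 (edgeR adjusted p = 0.347, 0.361 and 0.347, DESeq2 0.00345, 0.00509 and 0.016). Over 20 collagen and matrix genes the median was -0.50, with 3 below without overlap, where 2.66% of all genes were. Among the 3 was Lox, a collagen cross-linker (138 ± 37.9 and 217 ± 28.7 CPM). Timp1 belongs to the list of matrix proteases and inhibitors, in which 9 of 15 genes were positive and 6 negative. That list had 2 genes below without overlap. Its median was 0.13, between -0.03 and 0.28 with 1 library left out.

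Col1a1, the main chain of collagen I, overlapped, at 3949, 10292, 6368 and 5151 CPM against 14046, 13919, 7863 and 9418. Acta2, which encodes smooth muscle actin, stood at 298 ± 105 and 470 ± 81.4 CPM with overlap, and Pdgfra, of fibroblasts, was level at 66.1 ± 25.8 and 68.7 ± 31.3 CPM. The median over 14 fibroblast genes was -0.34, but -0.09 without allograft 6 and -0.75 without allograft 4. Over 11 genes of pericytes and smooth muscle it was -0.53, but -0.19 without allograft 1, -0.23 without allograft 6 and 0.08 without allograft 2. Allografts 4 and 2 held the most skeletal muscle RNA, and with the muscle level as a term in the fit edgeR called 0 genes and the median of the matrix list was -0.52.

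**Figure D5:**
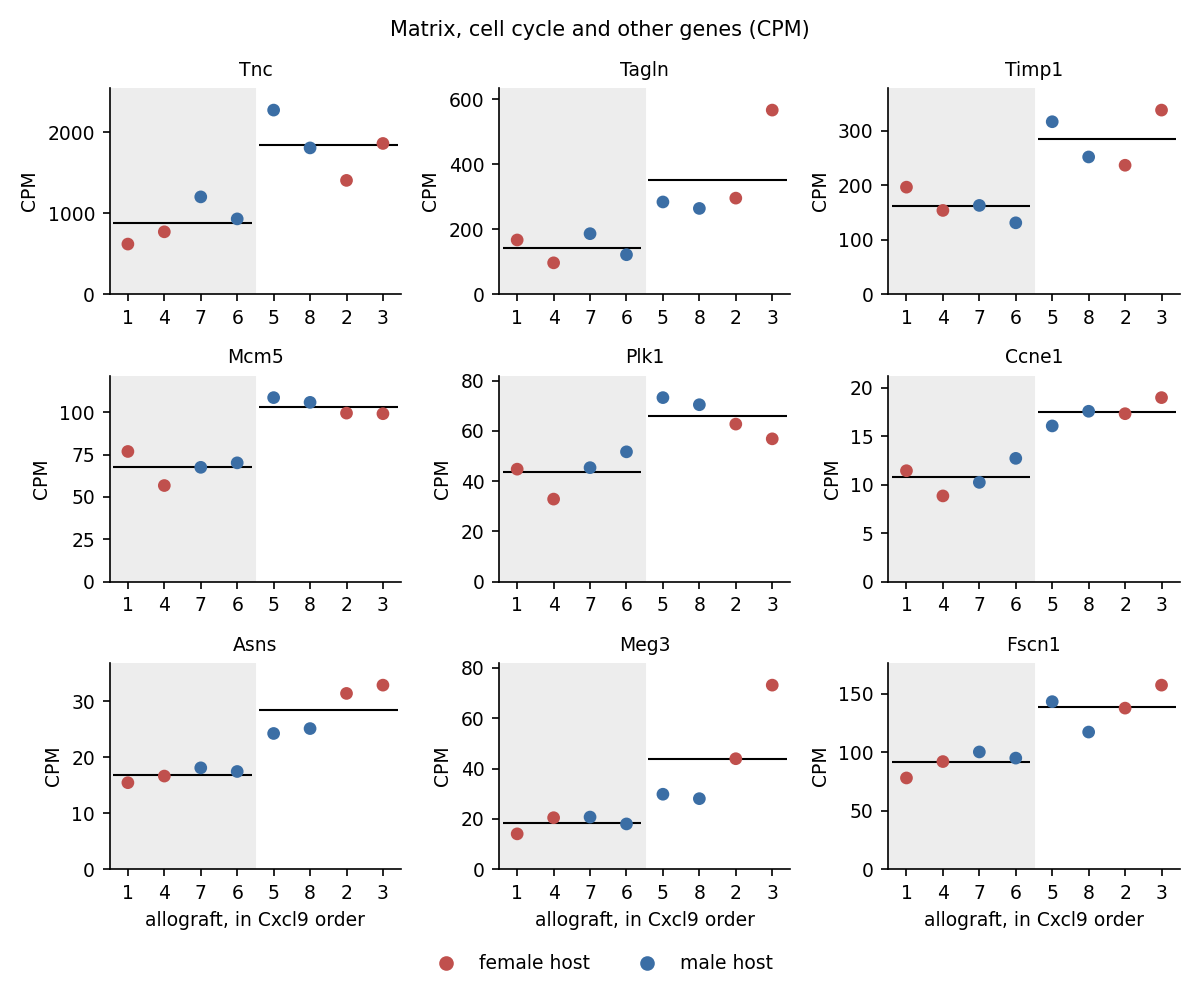
Levels of 9 genes that were lower in the Cxcl9-high libraries, in CPM (vertical axes, each from 0), in the 8 allografts in Cxcl9 order; red points are female hosts, blue points male hosts, black lines group means, and the shaded area holds the Cxcl9-high libraries. In each of the 9 panels every Cxcl9-high library lies below every Cxcl9-low library, and Meg3 climbs from 14.0 CPM in allograft 1 to 73.1 CPM in allograft 3.

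Epithelial genes had a median log2 fold change of 0.45 over 11 tested genes, 9 of them positive. Of the 11, 1 lay above without overlap and 1 was higher at an unadjusted p under 0.05. Over all genes the shares were 2.21% and 4.17%. The median was 0.13 without allograft 2, 0.26 without allograft 7 and 0.89 without allograft 8. Vim, the mesenchymal filament vimentin, stood at 2684 ± 146 and 3038 ± 344 CPM, and Krt19, a duct keratin, at 68.3 ± 11.7 and 69.96 ± 66.2 CPM. Cdh1, which encodes E-cadherin, was higher without overlap, at 60.6, 77, 63.4 and 66.1 CPM against 40.4, 48.3, 22.2 and 34.5 (log2 fold change 0.90 ± 0.22, edgeR adjusted p = 0.374, DESeq2 0.0392). Asns, which makes asparagine, was lower, at 15.5, 16.6, 18.1 and 17.5 CPM against 24.3, 25.1, 31.4 and 32.9 (-0.73 ± 0.14, edgeR adjusted p = 0.347, DESeq2 0.00769). In the ATF4 stress response 3 of 12 genes lay below and 1 above without overlap, where 2.66% and 2.21% of all genes did. The immediate early gene Nr4a1 was higher, at 54.1 ± 12.6 and 26.4 ± 6.35 CPM. The hypoxia targets Slc2a1, a glucose transporter, and Vegfa, a vessel growth factor, overlapped, at 71.8 ± 21.7 and 62.2 ± 20.9 CPM and at 125 ± 57.4 and 99.8 ± 42.0 CPM. The medians of 20 glycolysis and hypoxia genes and of 18 oxidative phosphorylation genes were 0.19 and -0.03, with 0 genes free of overlap in either list. Left-out libraries moved them between 0.05 and 0.57 and between -0.15 and 0.08. The muscle actin gene Acta1 ranged from 236 to 8384 CPM without order.

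The genes whose levels were most like Cxcl9 over the 8 libraries were not all known interferon targets. Among genes with a symbol, by Pearson's r of log2 levels, a description over 8 points with no test, the first were Clec2d, ligand of an inhibitory NK receptor (0.984), B2m (0.979), the complement-like protease gene C1rl (0.979), Ifi47 (0.977) and Cxcl10 (0.975). Pilrb1, AW112010, Fgl2, Tmem221 and Mettl7a1 followed, at 0.968 to 0.961. Of these, Clec2d, B2m, Ifi47, Cxcl10, AW112010, Fgl2 and Mettl7a1 rose with Cxcl9 in the continuous fit. Other immune genes among the 19, singled out after their values were seen, were Casp1, the inflammasome protease (0.76 ± 0.10 per doubling, edgeR adjusted p = 0.0404), and Clec12a, an inhibitory receptor of myeloid cells (0.46 ± 0.07, edgeR adjusted p = 0.0443). Fgl2, a secreted regulator of immune cells, stood at 91.2, 80.7, 66.9 and 73.5 CPM against 56.6, 50.2, 44.3 and 17.9.

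Among the 6 genes that fell with Cxcl9, 5 are named here after their values were seen. Meg3 (chromosome 12, 109506877 to 109538165), an imprinted long non-coding RNA, stood at 14.0, 20.5, 20.7 and 18.0 CPM against 29.8, 28, 43.9 and 73.1. It had 0 counts in cultured Panc02, its groups did not overlap, and it fell by 0.63 ± 0.06 per doubling (edgeR adjusted p = 0.0168, Pearson's r -0.973). Cmah, which makes a sialic acid form, fell by 0.67 ± 0.10 (edgeR adjusted p = 0.0439) and Myh3, the embryonic myosin heavy chain, by 1.05 ± 0.14 (edgeR adjusted p = 0.0404), both without overlap. Ccr6, a chemokine receptor of B cells and some T cells, and Cd209b, a lectin of lymphoid tissue macrophages, were called too, but both were far highest in allograft 3, at 3.48 and 18.7 CPM, and the continuous fit called 0 genes without it.

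Within the hosts of 1 sex the Cxcl9 contrast itself differed. Between the 2 Cxcl9-high and the 2 Cxcl9-low libraries of female hosts the ratio of mean Cxcl9 was 6.23, and for male hosts it was 1.42. The median log2 fold change of the guanylate-binding proteins was 2.41 in female and 0.93 in male hosts, beside log2 ratios of Cxcl9 of 2.64 and 0.50. That of the immunity-related GTPases was 2.39 and 0.85, and that of class I genes 1.14 and 0.11. NK cell genes had medians of 2.01 in female and 0.00 in male hosts, and cytotoxic effectors 1.83 and 0.15. Cell cycle genes had -0.33 and -0.42. Other lists turned sign, among them T cells with 0.66 in female and -0.13 in male hosts, fibroblasts with 0.18 and -1.0, and complement with 1.11 and -0.14. Chemokines had 0.54 and -0.25, pericytes and smooth muscle -0.86 and 0.06, and the CXCR3 genes 0.92 and -0.19. Regulatory T cells had 0.69 and -0.36, and dendritic cells 0.34 and -0.20. The male Cxcl9-high libraries include allograft 7, with its Xist RNA. Gene by gene, edgeR called 0 of 20559 differences as depending on host sex (0%), with a lowest adjusted p of 0.411 and 634 and 587 genes at an unadjusted p under 0.05 in either direction; DESeq2 was not run on this term. For the lists the difference between host sexes was not tested.

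Genes that Panc02 cells hardly express in culture were more common among those higher with Cxcl9 than among all genes, but were not most of them. Of the 454 genes with all Cxcl9-high libraries above all Cxcl9-low libraries, 30.8% were under 0.1 CPM in cultured Panc02, against 18.9% of all genes tested and 16.7% of the 546 genes with all below. A larger part, 52.2% of the 454, stood at 1 CPM or more there, against 63.9% of all genes tested and 63.6% of the 546. Of the guanylate-binding proteins, 9 of 11 were under 0.1 CPM there and the highest was at 0.285 CPM, where the labels name no interferon treatment. B2m, Irf1 and Irgm1 stood at 93.9, 22.01 and 8.14 CPM in cultured Panc02. Which cells of the tumour made the interferon-induced RNA was not tested.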

How the data were processed

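Whole-tumour polyadenylated RNA of 8 Panc02 allografts was sequenced. The authors deposited raw read counts per gene. The submitters' processing notes name featureCounts 2.0.6, HISAT2 2.2.1, cutadapt 4.4 and SAMtools 1.19.2, and build GRCm39. Per the file headers, genes were those of Ensembl 113, strand setting 2 was used, and single mates and multi-mapping reads were counted. Of genes with 1 to 20 counts, 71.0% to 77.9% had an even count, so counting error exceeds what the counts imply, and near copies share reads.

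CPM values and the Cxcl9 ranking were computed from the column totals. Differences were tested with edgeR 4.0.16 in R 4.3.3 (TMM, filterByExpr, robust quasi-likelihood F-test, Benjamini-Hochberg adjustment at 0.05) over the 8 libraries without a host sex term. Each SE was derived from the log2 fold change and its F statistic. DESeq2 1.42.0 was an alternative. The fit was tested on simulated data. No pair of libraries agreed within counting error. Likeness to Cxcl9 is Pearson's r of log2(CPM + 0.5) over genes with a symbol and a mean of at least 5 CPM.

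The groups, the 50 gene lists and the named genes were chosen with earlier results of these data known. Named genes are up to 4 members of each list by smallest p, any member of lists of at most 13, a fixed set of interferon, immune, stromal and tumour genes, and the 10 genes most like Cxcl9. Genes outside this rule are marked as such where named. Some genes of the fixed set are not reported here.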

Additional observations from a re-analysis of the deposited data

Results flagged for a closer look

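In a group of 4, a library is given here when its gap to the nearest other library exceeds Dixon's critical share of the group's whole range, at the 5% level. Chance gives this in about 5% of groups, and 103 named genes were looked at in both groups, so about as many were found as chance would give. In the Cxcl9-high group allograft 1 stood apart in Arg1, at 117 CPM against 39.8 to 46.6 in the others. Its Cxcl9 level, 771 CPM against 295 to 362 in the others, had a gap of that size too. That is given as a description only. The groups were cut on Cxcl9, so the 5% level does not hold for it, and it is not among the 103 named genes. In the Cxcl9-low group allograft 3 stood apart in 5 genes. It held Glycam1 at 189 CPM against 0.153 to 1.00, H2-Ob at 40.4 CPM against 3.96 to 4.52, Ccr6 at 3.48 CPM against 0.292 to 0.502, Cd209b at 18.7 CPM against 1.07 to 3.51 and Tagln at 567 CPM against 264 to 296. Of these, Glycam1, H2-Ob, Ccr6 and Cd209b are genes of B cells or of lymphoid tissue. Ccr6 and Cd209b were named only after their values were seen, so their place here is no separate result. Allograft 2 stood apart in Cxcl11, at 3.85 CPM against 0.590 to 0.869, and in the muscle gene Acta1, at 7390 CPM against 851 to 1235. Allograft 5, the Cxcl9-low library nearest the dividing line, stood apart in Prf1, at 5.58 CPM against 2.61 to 2.97.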

How the results depend on the processing

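edgeR called 0 genes between the groups with median-ratio scaling, with host sex or the muscle level as a term, without allografts 6 and 5, within the hosts of either sex, with the ranking on TMM-scaled levels, and when any 1 library was left out (0 to 0). DESeq2 called 196 genes, and edgeR without the low-count filter called 3 of 40668. The continuous Cxcl9 term called 25 genes, and 38 with host sex added, a setting chosen after seeing the data, like the removal of libraries from this term. Without allograft 1, 2, 4, 6 or 7 it called 290, 11, 33, 60 or 6 genes, and 0 without allograft 3, 5 or 8 or without allografts 1 and 3 together; the cause was not tested. Of 1854 log2 fold changes of the 103 named genes under other settings, 1842 kept their sign or belonged to the 15 genes within 1 SE of 0. In male hosts the sign turned for Psmb8 (-0.0029), H2-Ob (0.022), Cd3e (-0.078), Klrk1 (-0.020), Ido1 (-0.089), Arg1 (-0.18), C1qa (-0.050), Clec9a (-0.39), Glycam1 (0.33) and Pecam1 (0.23). Leaving out 1 library gave -1.89 to 0.080 for H2-Ob and -5.89 to 1.04 for Glycam1, turned by allograft 3 in both. No paired analysis was possible because the allograft numbers run from 1 to 8 over both groups and none is shared between them.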
